A study of Homo sapiens with 24 samples.

Results

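Messenger RNA of the lysyl hydroxylases (PLOD1, PLOD2 and PLOD3) and the lysyl oxidases (LOX and LOXL1 to LOXL4), the enzymes of collagen cross-linking, was examined in 24 RNA-seq libraries of T/C-28a2 cells, an immortalised human chondrocyte line. The 8 genes were chosen by name and matched by symbol to Ensembl identifiers. Each of the 8 was found once among the 62703 identifiers counted, and all 8 passed the filter on low counts that left 16600 genes for testing.

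Fibrillar collagen is stabilised in 2 enzymatic steps. Lysyl hydroxylases act in the endoplasmic reticulum, where they hydroxylate lysine residues of procollagen chains before the triple helix forms, and hydroxylation in the telopeptides decides which kind of cross-link can follow. Lysyl oxidases are copper enzymes that act outside the cell, where they oxidise lysine and hydroxylysine side chains of collagen and elastin to aldehydes that condense into covalent cross-links. In cartilage these cross-links join the collagen II network that carries tension, and altered cross-linking is a known feature of fibrosis and of osteoarthritic tissue.

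The study asked how chondrocytes respond to chronic hyperosmotic stress and what the kinase WNK2, a member of a family that senses chloride and osmotic stress, contributes. There were 6 groups of 4 libraries. WT Ctr were wild-type cells in isotonic medium and WT Sor were wild-type cells with 100 mM sorbitol for 7 days. WNK2 trans Ctr and WNK2 trans Sor were wild-type cells transfected with a WNK2 expression plasmid, 48 hours before the change to isotonic or sorbitol medium. WNK2- Ctr and WNK2- Sor were cells in which exon 2 of WNK2 had been deleted with CRISPR, in the same media. Untransfected cells were the comparator for the transfected ones, the WNK2- cells came from isolated single clones, and all groups share the cell line, so clone and genotype cannot be told apart.

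Total counts were 14153002 to 23239491 in the 16 wild-type and transfected libraries and 18578564 to 25664619 in the 8 WNK2- libraries. WNK2 itself went against 2 of the labels. It had 1217 to 2568 counts in the libraries labelled WT Ctr and 2237 to 3739 in those labelled WNK2 trans Sor, but 163 to 290 in those labelled WNK2 trans Ctr and 266 to 314 in WT Sor. The WNK2- libraries held 322 to 503 counts, over a gene in which only exon 2 was removed. The WT Ctr and WNK2 trans Ctr libraries are therefore named as labelled, and comparisons of the 8 genes that rest on 1 of them are given against the other as well. Of 13 chondrocyte markers, 10 passed the filter and SOX9 had 0 counts in all 24 libraries, while COL2A1 stood at 0.258 to 10.6 CPM (counts scaled to a common library total) and COL1A1, a fibroblast marker, at 837 to 5389 CPM. The study's supplement reports SOX9 by quantitative PCR in this line, but marks it as not detected in the RNA-seq. The 0 counts are therefore no proof that the line lacks SOX9 mRNA. The summed chondrocyte markers were 103.7 to 161 CPM in the 16 wild-type and transfected libraries and 28.4 to 34.2 CPM in the 8 WNK2- libraries, and their part in the results below was not tested. HAPLN1 weighed most in this sum, with a median of 58.15 CPM over the 24 libraries and a range of 12.81 to 151.1 CPM. The next highest median was 4.765 CPM, of COL9A3. In bulk RNA, fewer cells of a kind and less RNA per cell cannot be told apart.

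RefSeq promoter sequences on GRCh38.p14 were read for 7 of the 8 genes, and that of LOXL2 was not read. The sequences were each 300 bases long, with 250 before and 50 after a transcript start. They were searched for ACGTG on both strands, the core of the element that hypoxia-inducible factors bind, because LOX and PLOD2 are textbook targets of hypoxia. LOX, at its first start, held 4 copies and PLOD2 held 2, while the windows of LOXL1, LOXL3, LOXL4, PLOD1 and PLOD3 held 0. Of 35116 promoters of this length, 21.4% held at least 1 copy, so a match is a description and no sign of binding. The LOX and PLOD2 windows are shown for these matches, and those of LOXL1 and PLOD3 because these genes rose together in the WNK2- cells. Capitals mark ACGTG or its reverse complement CACGT.
LOX promoter (chr5:122078210-122078509, minus strand): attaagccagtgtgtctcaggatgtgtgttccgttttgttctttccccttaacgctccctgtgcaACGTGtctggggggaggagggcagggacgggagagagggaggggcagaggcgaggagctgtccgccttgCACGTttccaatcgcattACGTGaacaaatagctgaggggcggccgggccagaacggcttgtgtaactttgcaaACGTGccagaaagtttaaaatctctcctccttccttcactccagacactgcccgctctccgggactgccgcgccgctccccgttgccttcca
PLOD2 promoter (chr3:146161135-146161434, minus strand): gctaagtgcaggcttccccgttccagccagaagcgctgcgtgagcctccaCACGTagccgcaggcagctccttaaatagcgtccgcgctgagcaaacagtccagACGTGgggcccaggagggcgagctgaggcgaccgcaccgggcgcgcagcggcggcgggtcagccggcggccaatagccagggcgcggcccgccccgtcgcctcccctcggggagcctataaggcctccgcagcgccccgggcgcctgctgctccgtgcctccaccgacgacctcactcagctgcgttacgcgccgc
LOXL1 promoter (chr15:73926212-73926511, plus strand): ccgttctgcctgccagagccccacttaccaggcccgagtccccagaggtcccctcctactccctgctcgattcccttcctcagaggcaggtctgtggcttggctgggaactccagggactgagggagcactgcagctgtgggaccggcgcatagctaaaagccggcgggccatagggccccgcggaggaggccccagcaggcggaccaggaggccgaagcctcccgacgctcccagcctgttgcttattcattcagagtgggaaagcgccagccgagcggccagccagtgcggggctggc
PLOD3 promoter (chr7:101217532-101217831, minus strand): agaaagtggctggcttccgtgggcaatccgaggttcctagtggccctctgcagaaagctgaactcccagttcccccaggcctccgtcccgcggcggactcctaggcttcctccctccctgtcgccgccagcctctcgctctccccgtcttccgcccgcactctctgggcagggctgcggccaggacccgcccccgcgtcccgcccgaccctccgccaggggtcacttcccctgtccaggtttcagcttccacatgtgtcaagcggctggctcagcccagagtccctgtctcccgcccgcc

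Compared per kilobase of merged exons, LOXL2 was the most abundant lysyl oxidase in every group. Its share of the summed level of the 5 genes was 66.7% ± 1.4 in WT Ctr (mean ± SD, n = 4), against 75.4% ± 0.55 in WT Sor. In the WNK2- cells it was 63.4% ± 0.37 in isotonic medium and 61.5% ± 2.02 with sorbitol. LOXL1 was the next in order, with 20.7% ± 1.11 in WT Ctr, 14.2% ± 0.61 in WT Sor, 29.3% ± 0.56 in WNK2- Ctr and 31.1% ± 1.80 in WNK2- Sor. LOX and LOXL3 were minor, and LOXL4 made up 0.490% of the family in WT Ctr and 1.02% in WNK2- Ctr.

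The lysyl hydroxylases were more abundant as a group, with 104.0 ± 7.66 CPM per kilobase in WT Ctr against 59.2 ± 5.55 for the lysyl oxidases (SD, n = 4). PLOD1 led in the wild-type cells, at 56.8% ± 4.75 of the 3 genes in WT Ctr and 51.3% ± 2.2 in WT Sor. In the WNK2- cells the order turned. PLOD3 made up 46.9% ± 1.80 and PLOD1 43.4% ± 0.75 in WNK2- Ctr, and with sorbitol PLOD3 stood at 51.1% ± 1.51 and PLOD1 at 35.9% ± 1.54. The ranges of the 2 genes did not overlap in WNK2- Ctr, where the lowest PLOD3 share was 45.3% and the highest PLOD1 share 44.5%. PLOD2 was the least abundant in every group, at 9.68% to 18.5% on average.

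**Figure D1:**
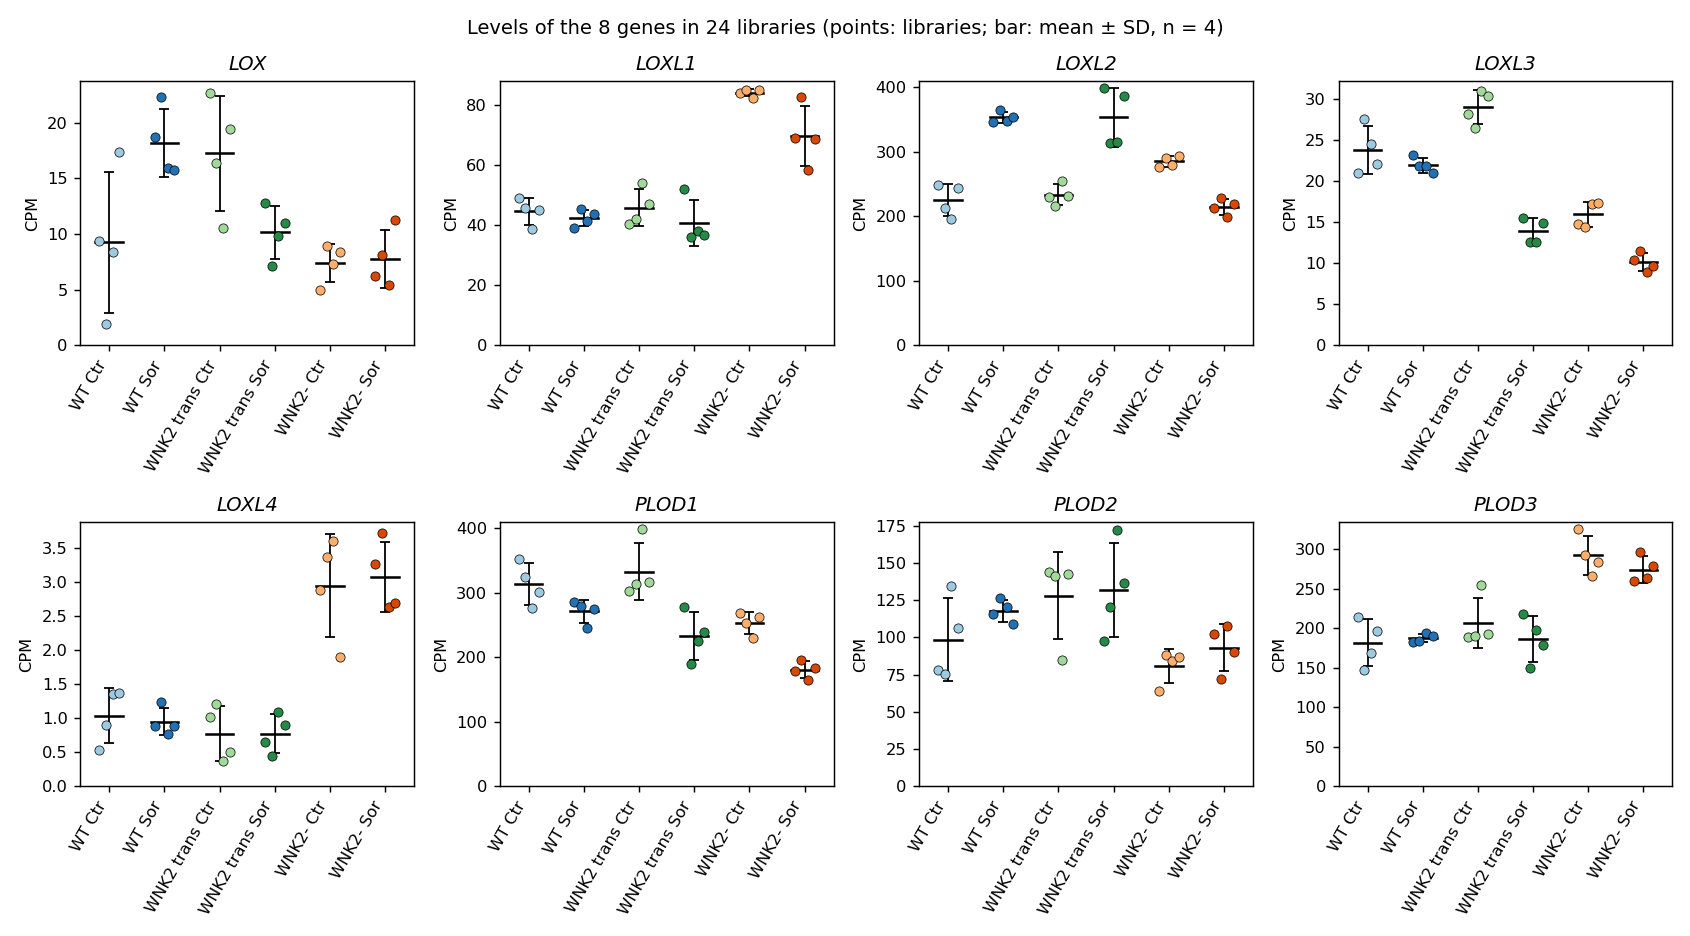
Level of each gene in CPM (y axis, from 0) in the 6 groups (x axis). Points are the 24 libraries and the bars give mean ± SD of 4. LOXL1, LOXL4 and PLOD3 stand higher in both WNK2- groups than in the other 4 groups, while LOXL2 is high in WT Sor and WNK2 trans Sor, at means of 354 CPM.

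**Figure D2:**
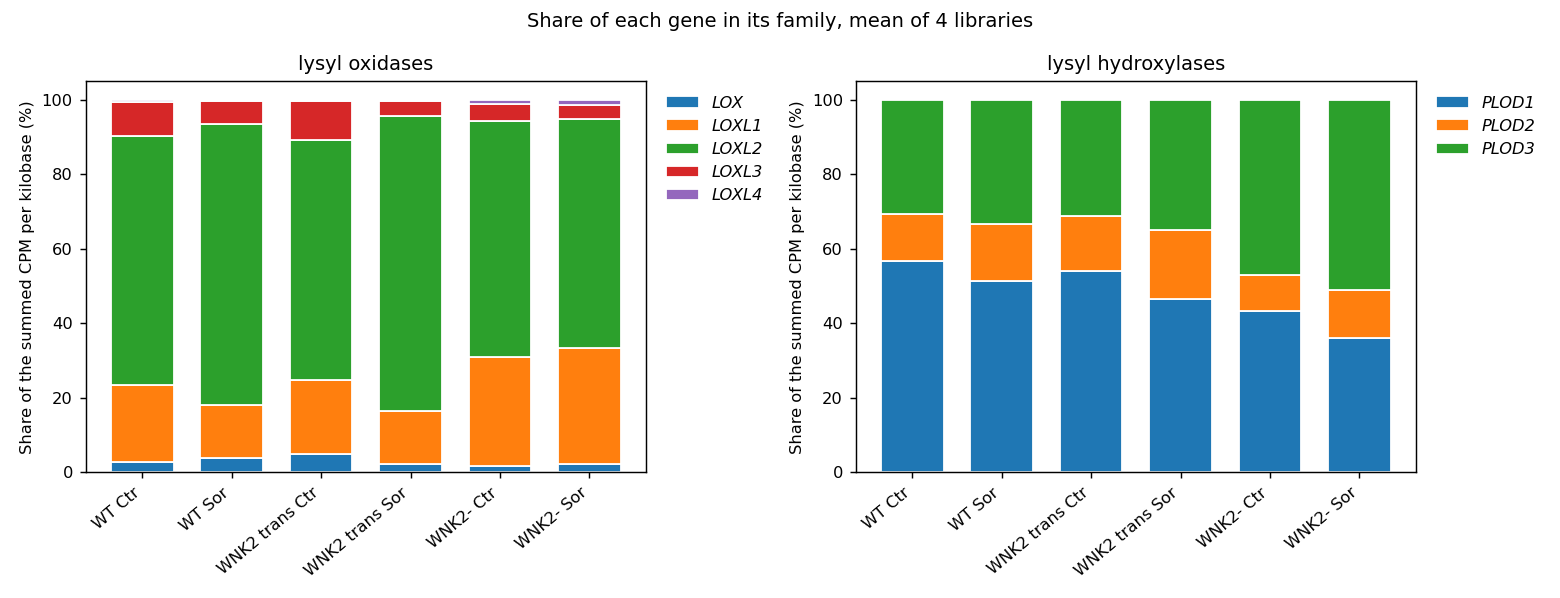
Share of each gene in the summed CPM per kilobase of its family (y axis, percent), as the mean of 4 libraries in each group (x axis). LOXL2 holds 61.5% to 79.1% of the lysyl oxidases in every group, and PLOD3 overtakes PLOD1 in the WNK2- cells.

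The first comparison was sorbitol in wild-type cells. Against WT Ctr, 2 of the 8 genes were called in WT Sor, LOX and LOXL2, both higher, where 24.1% of all tested genes were called. With WNK2 trans Ctr as the isotonic group, 2 were called against a background of 15.1%, LOXL2 higher and LOXL3 lower. LOXL2 was the gene that rose against both. The median log2 fold change of the 8 genes was −0.01 against WT Ctr, beside 0.04 over all tested genes.

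LOXL2 (chromosome 8, 23297189 to 23425328, minus strand, GRCh38 with GENCODE 29, as all gene positions here) encodes a lysyl oxidase with scavenger receptor domains that also cross-links collagen IV of basement membranes. It had 249.5, 214, 196 and 244 CPM in the libraries labelled WT Ctr and 347, 366, 348 and 355 CPM in WT Sor. In WNK2 trans Ctr it had 230.0, 216, 256 and 232 CPM, and in WNK2 trans Sor 399.5, 314, 315 and 387 CPM. Every sorbitol library of wild-type or transfected cells lay above every isotonic one. In WNK2- Ctr the values were 277, 291, 279 and 294 CPM, and in WNK2- Sor 213, 228, 199 and 219 CPM, so the order of the media was reversed, again without overlap.

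The log2 fold change of LOXL2 with sorbitol was 0.65 (SE 0.09, adjusted p = 1.06e-05) against WT Ctr and 0.60 (SE 0.09, adjusted p = 3.19e-05) against WNK2 trans Ctr. In transfected cells it was 0.60 (SE 0.09, adjusted p = 5.28e-06), or 1.00 once GC content and gene length were corrected for. In WNK2- cells LOXL2 fell by 0.41 (SE 0.09, adjusted p = 0.00196). The difference between the responses of WNK2- and WT cells was itself tested as an interaction, at −1.06 (SE 0.13, adjusted p = 3.6e-06) with WT Ctr and −1.01 (SE 0.13, adjusted p = 1.27e-05) with WNK2 trans Ctr as the isotonic wild-type group. Of the 8 genes, LOXL2 and LOXL3 were called in the first interaction, where 8.65% of all genes were, and LOXL2 alone in the second, where 3.39% were.

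LOXL2 differed between WNK2- and wild-type cells in both media, in opposite directions. In isotonic medium it was higher in WNK2- cells, by 0.34 (SE 0.09, adjusted p = 0.0033) against WT Ctr and 0.29 (SE 0.09, adjusted p = 0.00906) against WNK2 trans Ctr, the latter being 0.46 with the GC and length correction. With sorbitol it was lower, by a log2 fold change of −0.72 (SE 0.09, adjusted p = 2.93e-07), which became −0.46 with the GC and length correction. LOXL2 overlaps ENTPD4 on the same strand. ENTPD4, chosen after its values were seen, changed by −0.69 in the same comparison (SE 0.08, adjusted p = 7.91e-08). In isotonic WNK2- cells, where LOXL2 was higher, ENTPD4 was lower, at −0.34 (adjusted p = 0.00102) against WT Ctr and −0.51 (adjusted p = 8.06e-06) against WNK2 trans Ctr. With sorbitol it rose by 0.27 (adjusted p = 0.0154) in WT Sor against WT Ctr. Within WNK2- cells it was not called (−0.08, adjusted p = 0.566). The part of ENTPD4 in the LOXL2 values was not tested.

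LOX (chromosome 5, 122063195 to 122078360, minus strand) is the founding member of the family and the main cross-linking enzyme of collagen I and elastin. Among the 8 genes LOX varied most, relative to its mean, between the replicates labelled WT Ctr. It had 9.39, 1.94, 8.42 and 17.35 CPM in the libraries labelled WT Ctr and 18.7, 22.3, 15.9 and 15.8 CPM in WT Sor. The groups overlapped, and replicate 2 of WT Ctr, with 30 counts, lay lowest of all 24. The log2 fold change of 0.98 (SE 0.35) only just passed, with adjusted p = 0.0461. It did not pass in 19 of 32 alternatives, DESeq2 among them (adjusted p = 0.064). Leaving out WT Ctr replicate 2 brought it to 0.64 (adjusted p = 0.123), and leaving out replicate 4 to 1.47 (adjusted p = 0.00398).

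In WNK2 trans Ctr LOX had 22.7, 16.4, 10.5 and 19.4 CPM, 3 of them within or above the range of WT Sor. The log2 fold change of WT Sor against WNK2 trans Ctr was 0.08 (SE 0.34, adjusted p = 0.918). In WNK2 trans Sor the values were 12.8, 7.11, 9.78 and 10.9 CPM. In WNK2- Ctr they were 5.00, 8.89, 7.28 and 8.35 CPM and in WNK2- Sor 6.25, 8.08, 5.42 and 11.2 CPM. The WNK2- values lay below every WT Sor library. With sorbitol LOX was lower in WNK2- cells by a log2 fold change of −1.23 (SE 0.35, adjusted p = 0.00575). In isotonic medium it was lower against WNK2 trans Ctr (−1.22, SE 0.35, adjusted p = 0.00616) but not called against WT Ctr (−0.32, SE 0.36, adjusted p = 0.506), and without WT Ctr replicate 4 that value was 0.16.

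LOXL1 (chromosome 15, 73925989 to 73952137, plus strand) acts mainly on elastin, where it is tethered by fibulin-5. It had 48.9, 45.5, 38.5 and 45.04 CPM in WT Ctr and 40.2, 42.0, 53.95 and 46.9 CPM in WNK2 trans Ctr. In WNK2- Ctr it had 84.0, 84.7, 82.2 and 85.0 CPM, above all of these. With sorbitol it had 39.0, 45.3, 41.4 and 43.8 CPM in WT cells and 68.8, 82.6, 58.2 and 68.6 CPM in WNK2- cells. The transfected cells with sorbitol had 36.1 to 51.8 CPM.

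The log2 fold change of LOXL1 in WNK2- cells was 0.92 (SE 0.12, adjusted p = 9.5e-07) against WT Ctr, 0.88 (SE 0.12, adjusted p = 1.17e-06) against WNK2 trans Ctr and 0.72 (SE 0.12, adjusted p = 2.09e-05) with sorbitol. The last value was 1.32, and the second 1.35, after the GC and length correction. Sorbitol gave no call for LOXL1 within any genotype or transfection. LOXL1-AS1, an antisense gene over the LOXL1 start chosen here after its values were seen, stood at 11.2 ± 2.36 CPM in WT Ctr, 32.1 ± 3.53 in WNK2- Ctr and 52.3 ± 3.12 in WNK2- Sor (SD, n = 4). Its log2 fold changes were 1.52 and 2.28 in the WNK2- cells without and with sorbitol. Unlike LOXL1 it also rose with sorbitol in transfected cells, by 1.84 (SE 0.12, adjusted p = 4.65e-12). The strand setting of the read counting is not given in the sources used here, so reads of the overlap cannot be assigned with certainty.

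LOXL4 (chromosome 10, 98247690 to 98268250, minus strand), another lysyl oxidase with scavenger receptor domains, was the least expressed of the 8, with 6 to 88 counts per library. It had 0.525, 0.903, 1.35 and 1.37 CPM in WT Ctr and 0.889, 1.24, 0.774 and 0.889 CPM in WT Sor. In WNK2- Ctr it had 2.89, 3.38, 3.61 and 1.91 CPM and in WNK2- Sor 3.27, 3.72, 2.63 and 2.70 CPM. Every WNK2- library lay above every other library. The log2 fold change was 1.5 (SE 0.33, adjusted p = 0.000707) against WT Ctr, 1.89 (SE 0.34, adjusted p = 4.95e-05) against WNK2 trans Ctr and 1.70 (SE 0.33, adjusted p = 0.000134) with sorbitol.

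PLOD3 (chromosome 7, 101205977 to 101218420, minus strand), a lysyl hydroxylase that also adds galactose and glucose to hydroxylysine, rose in the WNK2- cells as well. It had 215, 148, 168 and 197 CPM in WT Ctr, 183, 183, 194 and 190.5 CPM in WT Sor and 189, 190.2, 254 and 193 CPM in WNK2 trans Ctr. In WNK2- Ctr it had 326, 293, 266 and 284 CPM and in WNK2- Sor 259, 296, 264 and 278 CPM. The WNK2- libraries lay above all wild-type and transfected ones, where the highest value was 254 CPM. The log2 fold change was 0.68 (SE 0.12, adjusted p = 4.72e-05) against WT Ctr, 0.50 (SE 0.12, adjusted p = 0.00105) against WNK2 trans Ctr and 0.55 (SE 0.12, adjusted p = 0.000434) with sorbitol, the last being 0.92 after the GC and length correction. Sorbitol gave no call within a genotype.

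LOXL3 (chromosome 2, 74532414 to 74555690, minus strand), a lysyl oxidase needed for palate and spine in development, moved the other way. It had 20.95, 27.6, 24.6 and 22.1 CPM in WT Ctr, 28.2, 26.5, 31.0 and 30.4 CPM in WNK2 trans Ctr and 23.2, 21.9, 21.9 and 21.0 CPM in WT Sor. In WNK2- Ctr it had 14.8, 14.5, 17.3 and 17.3 CPM and in WNK2- Sor 10.4, 11.5, 8.94 and 9.62 CPM. In WNK2 trans Sor it had 15.5, 12.6, 12.6 and 14.9 CPM. The WNK2- Sor libraries were the lowest of all 24, and all WNK2- and WNK2 trans Sor libraries lay below the other 12.

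In WNK2- cells LOXL3 was lower by −0.58 (log2, SE 0.11, adjusted p = 0.000165) against WT Ctr, −0.86 (SE 0.11, adjusted p = 4.73e-07) against WNK2 trans Ctr and −1.12 (SE 0.11, adjusted p = 9.61e-09) with sorbitol. Sorbitol lowered it within WNK2- cells (−0.66, SE 0.11, adjusted p = 0.000166) and within transfected cells (−1.06, SE 0.11, adjusted p = 2.27e-08). In WT cells it was not called against WT Ctr, and against WNK2 trans Ctr it was −0.40 (SE 0.11, adjusted p = 0.013), a call lost with no filter on low counts (adjusted p = 0.0549) and without WNK2 trans Ctr replicate 3 (adjusted p = 0.0529). The difference between genotypes in the sorbitol response was −0.54 (SE 0.16, adjusted p = 0.0323). That call was lost in 11 of 32 alternatives, among them the replicate block (adjusted p = 0.0505), and with WNK2 trans Ctr as the wild-type isotonic group. DOK1, on the opposite strand over the LOXL3 start and chosen after its values were seen, had log2 fold changes of −1.09 (adjusted p = 4.91e-05) in WNK2- Ctr against WT Ctr and −1.31 (adjusted p = 3.68e-06), or −0.60 with GC content and length corrected for, with sorbitol in transfected cells.

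PLOD1 (chromosome 1, 11934205 to 11975538, plus strand), which hydroxylates lysines of the collagen helix, followed a similar order. It had 352, 325, 277 and 301 CPM in WT Ctr, 302, 314, 399 and 317 CPM in WNK2 trans Ctr and 286, 280.1, 246 and 274.5 CPM in WT Sor. In WNK2- Ctr it had 268, 253, 230.3 and 262 CPM and in WNK2- Sor 179, 196, 165 and 184 CPM. All WNK2- Sor libraries lay below all WT Sor and all WNK2- Ctr libraries. Its log2 fold change in WNK2- cells was −0.31 (SE 0.11, adjusted p = 0.0216) against WT Ctr, −0.39 (SE 0.11, adjusted p = 0.00343) against WNK2 trans Ctr and −0.59 (SE 0.11, adjusted p = 6.6e-05) with sorbitol. The first was lost without WT Ctr replicate 1 (adjusted p = 0.0731) or WNK2- Ctr replicate 3 (adjusted p = 0.0767), and the other 2 came to −0.21 and −0.31 after the GC and length correction.

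Sorbitol lowered PLOD1 in WNK2- cells by −0.49 (log2, SE 0.11, adjusted p = 0.00213) and in the transfected cells, at 278, 189.7, 225 and 239.6 CPM, by −0.52 (SE 0.11, adjusted p = 0.000308). The second value did not hold after the GC and length correction (−0.09, adjusted p = 0.304).

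PLOD2 (chromosome 3, 146069440 to 146163653, minus strand), the hydroxylase of telopeptide lysines, had the fewest calls. It had 77.7, 75.1, 134.5 and 106 CPM in WT Ctr, 115.5, 126, 120.5 and 109 CPM in WT Sor and 144, 141, 84.6 and 142 CPM in WNK2 trans Ctr. In WNK2- Ctr it had 63.7, 88.3, 83.9 and 87.1 CPM and in WNK2- Sor 102, 72.0, 107 and 90.5 CPM. The groups of each comparison overlapped, except that all WNK2- Sor libraries lay below all WT Sor libraries. PLOD2 was called once, in WNK2- Ctr against WNK2 trans Ctr, at −0.66 (log2, SE 0.19, adjusted p = 0.00512). With sorbitol the value was −0.34 (SE 0.19, adjusted p = 0.144), which was called with the compared groups alone (−0.35, adjusted p = 0.00415) and with the GC and length correction (−0.37, adjusted p = 0.0132).

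**Figure D3:**
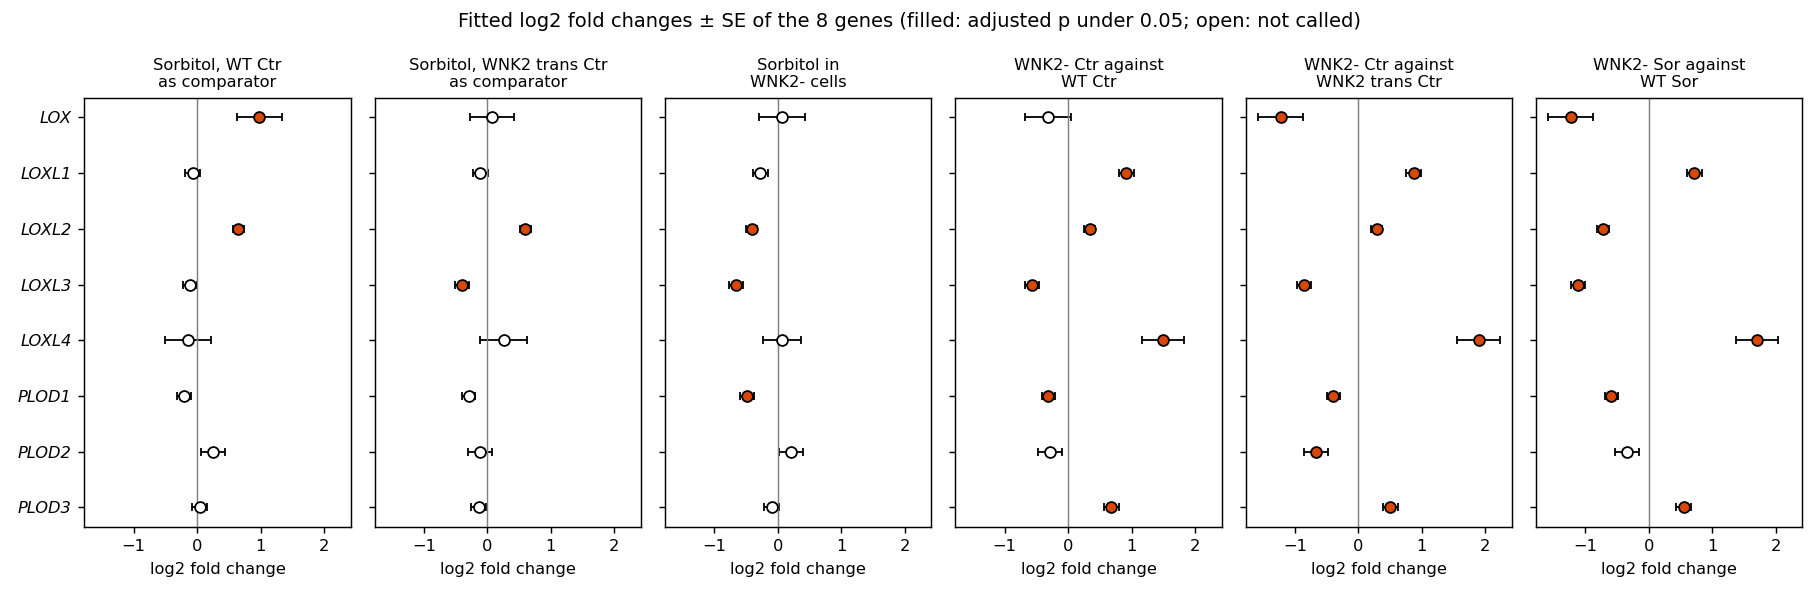
Fitted log2 fold change (x axis) with its standard error for the 8 genes (y axis) in 6 comparisons. Filled points have an adjusted p under 0.05 and open points do not. LOXL2 lies right of 0 with sorbitol in WT cells under both comparators and left of 0 in WNK2- cells.

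Counted together, 6 of the 8 genes were called in WNK2- Ctr against WT Ctr, where 42.1% of all tested genes were. LOXL1, LOXL2, LOXL4 and PLOD3 were higher and LOXL3 and PLOD1 lower. Against WNK2 trans Ctr all 8 were called, beside 47.7% of all genes, with LOX and PLOD2 added to those lower. With sorbitol 7 of 8 were called beside 46.3%, LOXL1, LOXL4 and PLOD3 higher and LOX, LOXL2, LOXL3 and PLOD1 lower. LOXL1, LOXL4 and PLOD3 were thus higher, and LOXL3 and PLOD1 lower, in each of these 3 comparisons. The median log2 fold change of the 8 was 0.03, −0.05 and −0.46 in turn, with 0.00, 0.01 and 0.02 over all tested genes. The last 2 comparisons share no libraries, and the first 2 share the WNK2- Ctr libraries.

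Within the WNK2- cells sorbitol gave 3 calls of 8, all lower, beside 14.9% of all genes. In transfected cells, WNK2 trans Sor against WNK2 trans Ctr gave 3 calls beside 48% of all genes and against WT Ctr 3 beside 39.2%, in both cases LOXL2 higher and LOXL3 and PLOD1 lower. Against WT Ctr the PLOD1 value of −0.43 (adjusted p = 0.00245) was not called with the compared groups alone (adjusted p = 0.063) or with the GC and length correction (−0.15, adjusted p = 0.0961).

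The transfected groups were compared with the untransfected ones as labelled. WNK2 itself was lower in WNK2 trans Ctr than in WT Ctr, by a log2 fold change of −3.32 (adjusted p = 3.88e-11). For WNK2 trans Ctr against WT Ctr edgeR called 0 of 8 beside 12.5% of all genes, DESeq2 called 0, the GC and length correction called 2, and LOX and LOXL3 had an unadjusted p under 0.05. LOX stood at 0.90 (log2, SE 0.36, adjusted p = 0.0991), at 1.39 (adjusted p = 0.0104) without WT Ctr replicate 4 and at 0.57 without replicate 2. With sorbitol, WNK2 trans Sor against WT Sor gave 1 call beside 31.7%, LOXL3 at −0.66 (SE 0.11, adjusted p = 6.41e-05), which was −0.37 after the GC and length correction. With that correction 5 of the 8 were called. The interaction of transfection with sorbitol called 2 of 8 beside 35.5% of all genes, LOX at −1.74 (SE 0.50, adjusted p = 0.00836) and LOXL3 at −0.95 (SE 0.16, adjusted p = 3.71e-05), the latter being −0.57 after that correction. With the 2 isotonic wild-type groups exchanged, so that each follows its WNK2 counts, edgeR called 0 of 8 beside 5.46%, DESeq2 called 0, the GC and length correction called 3, and LOXL3 had an unadjusted p under 0.05.

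Each gene was also set beside its 40 nearest tested genes on the chromosome, 20 on each side. The neighbours of LOXL1 stood at a median of 0.26 (log2) in the WNK2- cells, without and with sorbitol, beside 0.92 and 0.72 for LOXL1 itself. The neighbours of PLOD3 had medians of 0.17 and 0.01, and those of LOXL4 0.10 and 0.23. Around LOXL3 they were 0.01 and 0.04, and around PLOD1 0.07 and −0.01. In both comparisons the 5 genes lay farther from 0 than their neighbours' median. The 5 genes were all called in both, and a median over 40 genes that move both ways tends to lie near 0, so this is a description. The part of the chromosome region in these values was not tested.

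**Figure D4:**
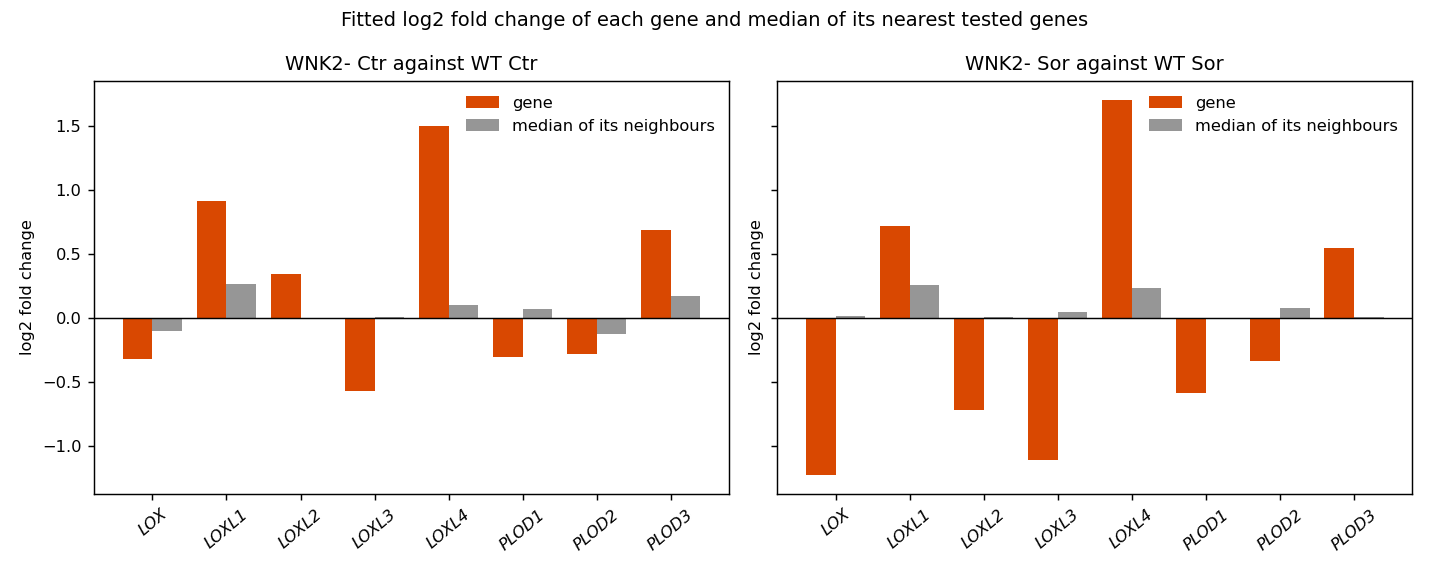
Fitted log2 fold change (y axis) of each gene (orange) and the median of its 40 nearest tested genes (grey) in WNK2- Ctr against WT Ctr and WNK2- Sor against WT Sor. LOXL1 has the highest neighbour median, 0.26 in both, against 0.92 and 0.72 for the gene.

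The other enzymes and chaperones of collagen folding, of which 15 of 16 were tested, work on the same chains as the lysyl hydroxylases. Calls in this and the later lists stand beside the shares of all tested genes called. These were 42.1% in WNK2- Ctr against WT Ctr, 47.7% against WNK2 trans Ctr and 46.3% in WNK2- Sor against WT Sor. For sorbitol they were 24.1% in WT cells against WT Ctr, 15.1% against WNK2 trans Ctr, 14.9% in WNK2- cells and 48% in transfected cells. In WNK2- Sor against WT Sor, 3 were higher and 10 lower, with a median of −0.36 against 0.02 over all genes. P3H4, a partner of the PLOD1 protein in a complex with P3H3 and cyclophilin B, fell by 1.85 (log2, SE 0.13, adjusted p = 8.87e-12). FKBP10, a prolyl isomerase that assists the PLOD2 protein, fell by 1.65 (SE 0.19, adjusted p = 9.42e-08), while COLGALT2, a collagen galactosyltransferase, rose by 1.16 (SE 0.25, adjusted p = 0.000518). P3H4 stood at 129 ± 15.3 CPM in WT Ctr, 179 ± 10.9 in WT Sor, 59.3 ± 3.61 in WNK2- Ctr and 49.5 ± 5.20 in WNK2- Sor (SD, n = 4).

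Without sorbitol 2 of the 15 were higher and 4 lower against WT Ctr, and 2 higher and 9 lower against WNK2 trans Ctr. The calls against WT Ctr were close to the share over all tested genes, 42.1%. P3H2, a prolyl 3-hydroxylase, rose by 0.96 and 0.83 in these comparisons and P3H4 changed by −1.12 and −1.72 (adjusted p from 3.38e-11 to 8.19e-08). Sorbitol lowered 6 and raised 2 of the 15 in WNK2- cells, and lowered 12 and raised 1 in transfected cells. SERPINH1, the collagen chaperone HSP47, fell by 1.05 (SE 0.10, adjusted p = 5.5e-08) in WNK2- cells and by 1.42 (SE 0.10, adjusted p = 4.25e-11) in transfected cells. In WT cells 4 were lower and 2 higher against WT Ctr, with P4HA1, a subunit of prolyl 4-hydroxylase, at −0.43 (SE 0.10, adjusted p = 0.00269), or −0.29 without WT Ctr replicate 2, and P4HA3 at 0.80 (SE 0.21, adjusted p = 0.00659). Against WNK2 trans Ctr 6 were lower and 1 higher. P4HA1 was also lower there, at −0.90 (adjusted p = 6.05e-07), and P4HA3, at 0.48, was not called (adjusted p = 0.118). The response of SERPINH1 and P3H2 to sorbitol differed between genotypes, by −0.88 (adjusted p = 0.000291) and −0.75 (adjusted p = 3.57e-05) with WT Ctr as the isotonic wild-type group. With WNK2 trans Ctr in its place P3H2 stood at −0.62 (adjusted p = 0.000564), and SERPINH1, at −0.41, was not called (adjusted p = 0.151). For WNK2 trans Sor against WT Sor 8 of the 15 were lower and 1 higher, with a median of −0.22, beside 31.7% of all tested genes called.

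Of the fibrillar collagens and elastin, the substrates of both families, 9 of 12 were tested. In WNK2- cells with sorbitol 5 were lower and 2 higher than in WT Sor, with a median of −0.60. COL3A1 fell by 3.57 (log2, SE 0.09, adjusted p = 7.57e-20) and COL1A1 by 1.63 (SE 0.13, adjusted p = 2.24e-10). In isotonic medium COL3A1 was lower by −2.12 (SE 0.09, adjusted p = 1.71e-15) and COL27A1 higher by 1.22 (SE 0.13, adjusted p = 5.64e-08), with 4 higher and 2 lower in all. Against WNK2 trans Ctr the balance turned, with 2 higher and 5 lower, COL3A1 at −3.36 (adjusted p = 1.81e-19) and COL27A1 at 0.84 (adjusted p = 9.6e-06). For sorbitol in WT cells the list turned with the comparator. Against WT Ctr 4 were higher and 0 lower, COL3A1 at 0.62 (adjusted p = 8.78e-06), and against WNK2 trans Ctr 0 were higher and 5 lower, COL3A1 at −0.61 (adjusted p = 1.09e-05). Within WNK2- cells sorbitol lowered 4 and raised 0, COL1A1 by −1.44 (SE 0.13, adjusted p = 1.96e-08). Within transfected cells it lowered 7 and raised 1. For WNK2 trans Sor against WT Sor 6 were lower and 0 higher, with a median of −0.88, beside 31.7% of all tested genes called. COL1A1 and COL3A1 differed between genotypes in their sorbitol response by −1.48 (adjusted p = 8.05e-06) and −1.44 (adjusted p = 1.64e-08), with WT Ctr as the comparator. With WNK2 trans Ctr COL1A1 was at −0.75 (adjusted p = 0.0184), and COL3A1, at −0.21, was not called (adjusted p = 0.465). COL1A1 and COL3A1 also make up most of the 8 fibroblast markers, of which THY1 had 0 counts and COL1A2 at most 0.98 CPM. The markers summed to between 968.5 and 1168 CPM in WNK2- Sor libraries, against 2678 to 3026 without sorbitol, and to between 1115 and 1878 CPM in WNK2 trans Sor, against 5546 to 6728 without it. For WT cells the range was 3726 to 3976 CPM with sorbitol and 2797 to 4015 CPM without. LOXL3 and PLOD1 likewise had their lowest means in WNK2- Sor, and the part of this shift in their values was not tested.

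Genes of procollagen processing and fibril assembly, 18 of 19 tested, were lower in 12 cases and higher in 2 in WNK2- Sor against WT Sor, with a median of −0.87. POSTN, a matricellular protein that brings the activating protease BMP1 to LOX, fell by 2.60 (SE 0.12, adjusted p = 4.4e-15), and MFAP4, a microfibril-associated glycoprotein, fell by 3.26 (SE 0.16, adjusted p = 1.82e-14). In WNK2- Ctr 7 were lower and 3 higher against WT Ctr, and 13 lower and 2 higher against WNK2 trans Ctr, with LUM, the fibril-binding proteoglycan lumican, against WT Ctr at −5.58 (SE 0.36, adjusted p = 4.59e-12), from 5.06 to 9.35 CPM in WT Ctr to 0 to 0.31 CPM. Sorbitol in WT cells raised 5 and lowered 0 against WT Ctr, POSTN by 0.70 (adjusted p = 8.88e-05), but against WNK2 trans Ctr 1 was higher and 5 were lower. In WNK2- cells it lowered 4, SPARC by −0.98 (SE 0.09, adjusted p = 9.04e-09). In transfected cells it lowered 14 and raised 3. The fall against WT Sor was not particular to WNK2- cells. For WNK2 trans Sor against WT Sor 12 were lower and 1 higher, with a median of −0.70, beside 31.7% of all tested genes called.

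Partners of the lysyl oxidases in elastic fibres, 13 of 14 tested, were lower in 7 cases and higher in 3 in WNK2- Ctr against WT Ctr, and lower in 9 and higher in 1 in WNK2- Sor, with medians of −0.36 and −0.70. Against WNK2 trans Ctr 9 were lower and 3 higher, with a median of −0.80. For WNK2 trans Sor against WT Sor 9 were lower and 0 higher, with a median of −0.58, beside 31.7% of all tested genes called. Sorbitol within transfected cells lowered 9 and raised 0. FBLN1 was at −1.22 in WNK2- Ctr against WT Ctr and −1.38 in WNK2- Sor (adjusted p = 5.44e-12 and 2.41e-13). FBLN5, whose protein tethers LOXL1 to elastic fibres, was the 1 gene that rose in WNK2- Sor, by 1.88 (SE 0.42, adjusted p = 0.000622), at 2.24 to 3.18 CPM against 0.55 to 1.00 CPM in WT Sor. EFEMP1 fell with sorbitol in WT cells, by −0.77 (adjusted p = 7.75e-07) against WT Ctr and −1.29 (adjusted p = 1.2e-10) against WNK2 trans Ctr. Of 10 tested genes of copper supply, on which lysyl oxidase activity depends, 2 were higher and 3 lower in WNK2- Ctr against WT Ctr, 3 higher and 2 lower against WNK2 trans Ctr, and 4 higher and 3 lower in WNK2- Sor. These calls stood beside 42.1%, 47.7% and 46.3% of all tested genes in turn. STEAP3, a metalloreductase, was higher in all 3, by 1.66 (adjusted p = 2.62e-05), 2.02 (adjusted p = 1.5e-06) and 1.84 (adjusted p = 2.58e-06). MT2A, a metallothionein that binds copper and zinc, rose with sorbitol in WNK2- cells (1.34, adjusted p = 5.93e-06). In WT cells it fell against WT Ctr (−0.95, adjusted p = 0.00038) and was not called against WNK2 trans Ctr (0.16, adjusted p = 0.599).

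**Figure D5:**
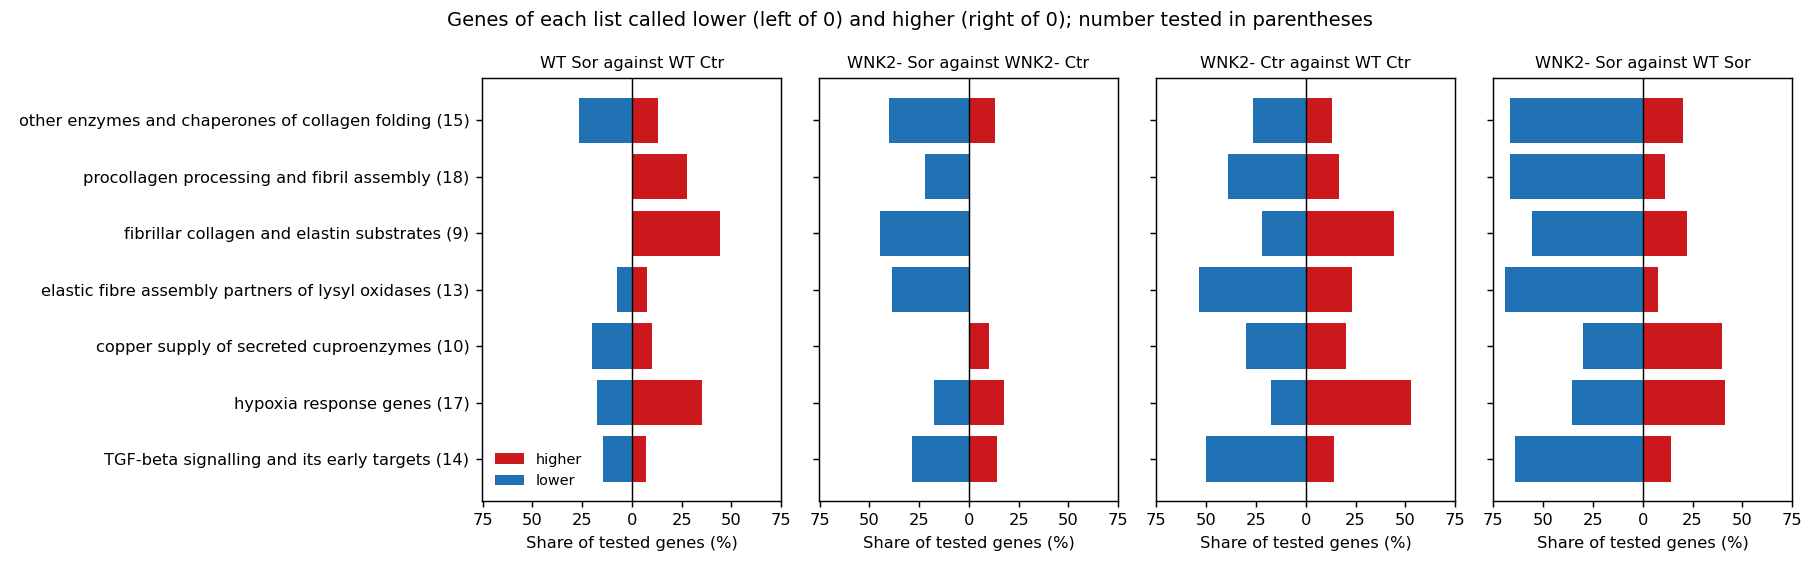
Share of tested genes called higher (red, right of 0) and lower (blue, left of 0) in each of 7 lists (y axis, number tested in parentheses) for 4 comparisons. The x axis is percent of tested genes. Over all tested genes 24.1% were called in WT Sor against WT Ctr and 14.9% in WNK2- Sor against WNK2- Ctr. In WNK2- Ctr against WT Ctr 42.1% were called, and in WNK2- Sor against WT Sor 46.3%. In WNK2- Sor against WT Sor more genes are lower than higher in 5 of the lists, among them collagen folding with 10 lower and 3 higher.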

How the data were processed

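The deposited files hold raw read counts per Ensembl gene for 24 poly(A)-selected libraries, made by the authors without normalization. The submitters' processing notes name GRCh38, FastQC 0.11.9, HISAT2 2.2.1, HTSeq 2.0.2 and DESeq2 1.38.3, and the study's supplementary methods name other versions of HTSeq and DESeq2. The gene annotation and the strand setting are not given in the sources used here. Symbols came from a separate list of gene names, which gave one to 62625 identifiers. Positions were taken from GENCODE 29 (58279 of 62703 identifiers placed).

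In R 4.3.3, edgeR 4.0.16 kept genes by filterByExpr (minimum count 10, minimum total 15), scaled them by TMM and fitted 6 group means by quasi-likelihood over all 24 libraries, with Benjamini-Hochberg adjustment over 16600 genes within each comparison and a threshold of 0.05. SE is the log2 fold change over the root of F. CPM uses effective library sizes, and levels between genes are per kilobase of merged exons. The test was checked on simulated counts. Alternatives were DESeq2 1.42.0, RLE factors, no filter, at least 10 counts in every library, the compared groups alone, a replicate block, thinning to the smallest total, a correction for GC content and length by splines with 5 degrees of freedom, and 24 fits leaving out 1 library.

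Pairs of replicates within a group differed beyond counting noise (chi-square per degree of freedom 2.3 to 68.4), so none was merged. The labels number the replicates and do not say that numbers pair samples, and nothing in them says that replicates came from separate cultures, so p-values measure the spread between these samples. Deviations of same-numbered libraries correlated over 0.1 in every pair only for WNK2 trans Sor and WT Ctr (0.278 to 0.89), where the replicate block changed no call among the 8 genes. The genes and lists were chosen with earlier results of these data known. From each list at most 2 genes per direction and comparison, with the smallest adjusted p, could be named. Results for some genes are not reported here.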

Additional observations from a re-analysis of the deposited data

Results flagged for a closer look

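In 4 of 48 combinations of gene and group, 1 library lay far from the other 3, by a gap that took more of the group's range than Dixon's 95% limit for 4 values. Chance alone gives about 1 in 20. The ratio was 0.956 for PLOD2, 0.941 for PLOD3 and 0.847 for PLOD1 in WNK2 trans Ctr, all from replicate 3, and 0.876 for LOXL1 in WNK2 trans Sor, from replicate 1. In WNK2 trans Ctr replicate 3 PLOD2 was low at 84.6 CPM, and PLOD1 and PLOD3 were high at 399 and 254 CPM.

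The sorbitol response of LOXL2 differed between WNK2- and WT cells by −1.06 on the log2 scale with WT Ctr and by −1.01 with WNK2 trans Ctr as the isotonic wild-type group. For LOXL3 the difference between genotypes was −0.54. Between transfected and WT cells it was −1.74 for LOX and −0.95 for LOXL3, and neither was called with the isotonic wild-type groups exchanged.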

How the results depend on the processing

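Of 43 log2 fold changes of the 8 genes, 34 kept their direction and their side of the threshold in every alternative that could be fitted. The 43 were the values called in the main fit and a few uncalled values of LOX and PLOD2. Most uncalled values were left out, so this count mostly misses values that became called in an alternative. LOX in WNK2- Ctr against WT Ctr, not called, ranged from −0.66 without WT Ctr replicate 2 to 0.16, a change of sign, without WT Ctr replicate 4. The 60 values of other genes that were refitted kept both, while their values against WNK2 trans Ctr were mostly not refitted. Most of these other genes were named for the smallest adjusted p in a list, so this says little about the lists themselves.

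With the GC and length correction 5 of the 8 genes were called for WT Sor against WT Ctr, 2 for WNK2 trans Ctr against WT Ctr, 5 for WNK2 trans Sor against WT Sor, 5 for WNK2 trans Sor against WT Ctr, 1 for the genotype interaction, 5 for the transfection interaction and 3 with the groups exchanged. Over all genes it called 3782 for WNK2- Sor against WNK2- Ctr (main 2473), 4078 for WT Sor against WNK2 trans Ctr (2499), 2379 and 1217 for the genotype interaction with WT Ctr and WNK2 trans Ctr (1436 and 562), and 1992 for the exchanged transfection interaction (906). The compared groups alone gave 747, 4824, 3018, 1307 and 401 genes for WNK2 trans Ctr against WT Ctr (2082), WNK2- Sor against WNK2- Ctr, WNK2 trans Sor against WT Ctr (6509), the genotype interaction with WNK2 trans Ctr and the exchanged interaction.

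For WT Sor against WT Ctr 1 of the 8 was called with DESeq2, with the compared groups alone or after thinning, LOX being lost. For WNK2 trans Sor against WT Sor 2 were called with no filter or with the compared groups alone. WT Sor against WNK2 trans Ctr gave 1 with no filter. The genotype interaction gave 1 with no filter, with thinning or with the replicate block, LOXL3 being lost at adjusted p = 0.0505 in the last. The replicate block changed no other call among the 8.

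Leaving out 1 library gave 1 to 2 calls for WT Sor against WT Ctr and for the genotype interaction, 0 to 1 for WNK2 trans Ctr against WT Ctr, 1 to 3 for WNK2 trans Sor against WT Sor, 3 to 5 for WNK2 trans Sor against either isotonic group and 1 to 3 for WT Sor against WNK2 trans Ctr. WNK2 trans Sor replicate 1 was the library left out where WNK2 trans Sor gave its highest counts, and WT Ctr replicate 2 or 4 where WNK2 trans Ctr against WT Ctr gave 1. Over all genes the genotype interaction ranged from 849 (without WNK2- Sor replicate 3) to 1908 (without WT Ctr replicate 4), and the exchanged transfection interaction from 602 to 1768 (without WNK2 trans Sor replicate 4 and 1).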

Other observations

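Hypoxia response genes, 17 of 18 tested, were higher in 9 cases and lower in 3 in WNK2- Ctr against WT Ctr, with a median of 0.29, but against WNK2 trans Ctr 5 were higher and 9 lower, with a median of −0.21. In WNK2- Sor against WT Sor 7 were higher and 6 lower. ADM, the vasodilator peptide adrenomedullin, was higher in the 3 comparisons, by 1.22 (log2, adjusted p = 1.17e-08), 2.45 (adjusted p = 3.93e-14) and 1.31 (adjusted p = 2.06e-09) in turn, and BNIP3L, a mitophagy receptor, was lower, by −0.88 (adjusted p = 1.2e-10), −1.29 (adjusted p = 5.18e-14) and −0.94 (adjusted p = 2.45e-11). With sorbitol in WT cells 6 were higher and 3 lower against WT Ctr, EPAS1 at 1.12 (adjusted p = 1.75e-09), while against WNK2 trans Ctr 2 were higher and 9 lower, and EPAS1, at 0.24, was not called (adjusted p = 0.0603). BNIP3 was lower against both, at −0.40 (adjusted p = 0.000894) and −0.91 (adjusted p = 1.27e-08).

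Of 14 tested genes of TGF-beta signalling and its early targets, 2 were higher and 7 lower in WNK2- Ctr against WT Ctr, 2 higher and 10 lower against WNK2 trans Ctr, and 2 higher and 9 lower in WNK2- Sor. The shares of all tested genes called were 42.1%, 47.7% and 46.3% in turn. PMEPA1, a feedback inhibitor of the pathway, was lower in all 3, by −0.47 (adjusted p = 5.73e-06), −0.95 (adjusted p = 2.81e-11) and −1.20 (adjusted p = 3.16e-13). SMAD7, an inhibitory SMAD, rose with sorbitol in WT cells against WT Ctr, by 0.63 (adjusted p = 0.000589), and was not called against WNK2 trans Ctr (0.15, adjusted p = 0.482).

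The genes most like each of the 8 were taken by Pearson correlation of log2 CPM over the 24 libraries, which fall into 6 groups and share their group means, so the values are a description. For LOXL2 they were REC8 (r = 0.884) and RIPK4 (0.854), for LOXL1 TEAD4 (0.954) and C9orf40 (0.948), and for PLOD3 POM121C (0.957) and BAG3 (0.957). For PLOD1 they were MCM5 (0.977) and QARS1 (0.972), for LOXL3 GNG4 and MEST (both 0.965), and for LOXL4 ZNF106 (0.923) and ANKS6 (0.912). PLOD2 was closest to ARHGAP5 (0.959) and DPY19L3 (0.905), and LOX to IRS2 (0.884). Among the 8 the highest values were 0.914 for LOXL1 with PLOD3 and 0.903 for LOXL3 with PLOD1.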
